A study of Homo sapiens with 4 samples.

Results

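The clustered histone genes are the replication-dependent genes named HIST1, HIST2, HIST3 or HIST4 on the array, and they were chosen by name: every non-control spot whose gene name begins with HIST1H, HIST2H, HIST3H or HIST4H. This gave 83 probes, each on 1 spot, for 65 of the 30982 gene names on the array. They comprised 6 genes for the linker histone H1, 15 for H2A, 17 for H2B, 13 for H3 and 14 for H4. By name, 54 belonged to HIST1, 7 to HIST2, 3 to HIST3 and 1 to HIST4. RefSeq places 54 of the 65 on chromosome 6, 10 on chromosome 1 and 1 on chromosome 12. All 65 array names matched a current gene, and HIST1H3C, for example, is now H3C3.

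Core histones H2A, H2B, H3 and H4 form the protein spool around which DNA winds, and H1 binds the linker between spools. Their clustered genes are switched on as cells copy their DNA, and most of their mRNAs end in a stem-loop bound by SLBP rather than in a poly(A) tail. The labelling kit primes on poly(A), so by its design the array reads mainly the polyadenylated part of these transcripts. Coding sequences of genes of 1 histone type are close copies of one another, so a probe may also bind transcripts of its sister genes. The scanner files list RefSeq transcripts of more than 1 gene for 9 of the 83 probes, among them both HIST2H3A probes and the HIST1H2BE probe, which names 4 genes. Probe sequences were not used here, and how far each probe separates its gene from the others was not tested.

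Total RNA was taken 72 h after transfection of 2 head and neck squamous carcinoma cell lines, FaDu (hypopharynx) and HSC3 (tongue). Each line received miR-489, miR-504 or a control miRNA, and each of the 4 arrays set RNA of 1 miRNA transfectant (Cy5) against RNA of that line's control transfectant (Cy3), with 1 array per condition. The question was which genes change when either miRNA is raised. The miRNAs were given as synthetic precursors, no array had the dyes swapped, and each line is an established culture. Dye and treatment therefore cannot be told apart on a single array, and in these bulk samples fewer cells in S phase and less histone RNA per cell cannot be told apart either. The labels do not say whether the 2 arrays of a line shared 1 control RNA. All 7 squamous epithelial markers found on the array were well above background in both lines, whereas 0 of 5 fibroblast and 0 of 3 endothelial markers were, and CD14 was the 1 of 5 leukocyte markers that was.

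The mature miRNAs that these names denote today are given first, from RefSeq on GRCh38.p14, because the contrast between them carries the main result. Capitals mark the seed, bases 2 to 8, with which a miRNA pairs to its targets, and the seeds of the pair differ. hsa-miR-489-3p lies at chr7:93483947-93483968, minus strand, and hsa-miR-504-5p at chrX:138667760-138667781, minus strand.
hsa-miR-489-3p: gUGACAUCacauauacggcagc
hsa-miR-504-5p: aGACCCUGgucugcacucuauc

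Promoters of the members carried letters that differ by histone type. In the 250 bases before the annotated gene start (60 of the 65 members were in the RefSeq promoter table), CCAAT or its reverse complement ATTGG stood in every H1, H2A, H2B and H3 promoter, 6 of 6, 14 of 14, 17 of 17 and 11 of 11. It stood in 3 of 12 H4 promoters, and in 33.0% of all 27305 promoters of the same length. The octamer ATTTGCAT (or ATGCAAAT), the letters that Oct factors read in H2B promoters, stood in 13 of 17 H2B (76.5%) and 11 of 14 H2A promoters (78.6%), but in 1 of 11 H3, 0 of 6 H1 and 0 of 12 H4 promoters and in 1.66% of all promoters. Some H2A and H2B members are neighbours within 500 bases, so 1 octamer may be counted for both types, and how often was not tested. TATAAA, searched on the sense strand only, stood in 35 of the 60 (58.3%) against 7.17% of all. HIST1H2AH, HIST1H3I, HIST1H3J, HIST1H4A and HIST1H4C had no entry. No 2 of these motifs overlapped in a member's promoter (0 of 60), and a match of letters does not show that a factor is bound.

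The last 150 bases before the gene start are shown for 4 H3 genes that differed between the miRNAs, for HIST1H2BB and HIST1H2BK, which stand at opposite ends of the H2B comparison between lines, and for HIST1H1B and HIST1H4E, the members with the lowest ratios. Capitals mark the CCAAT box on either strand, the TATAAA box on the sense strand and the octamer on either strand. All are from RefSeq on GRCh38.p14 and read in the sense of the gene: HIST1H3B at chr6:26032100-26032249, minus strand, HIST1H3C at chr6:26045234-26045383, plus strand, HIST1H3G at chr6:26271414-26271563, minus strand, HIST2H3A at chr1:149852458-149852607, plus strand, HIST1H2BB at chr6:26043714-26043863, minus strand, HIST1H2BK at chr6:27146859-27147008, minus strand, HIST1H1B at chr6:27867589-27867738, minus strand and HIST1H4E at chr6:26204460-26204609, plus strand.
HIST1H3B: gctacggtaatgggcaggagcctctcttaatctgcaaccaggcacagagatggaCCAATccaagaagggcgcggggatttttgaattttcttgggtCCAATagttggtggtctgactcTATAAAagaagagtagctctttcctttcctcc
HIST1H3C: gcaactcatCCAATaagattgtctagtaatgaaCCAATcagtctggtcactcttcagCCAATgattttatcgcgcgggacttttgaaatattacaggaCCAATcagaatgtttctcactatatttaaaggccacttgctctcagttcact
HIST1H3G: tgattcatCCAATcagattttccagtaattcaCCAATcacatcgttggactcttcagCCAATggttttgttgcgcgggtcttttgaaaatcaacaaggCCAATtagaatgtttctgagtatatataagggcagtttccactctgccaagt
HIST2H3A: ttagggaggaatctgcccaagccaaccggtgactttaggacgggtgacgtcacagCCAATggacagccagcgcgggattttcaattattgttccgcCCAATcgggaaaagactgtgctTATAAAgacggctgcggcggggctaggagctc
HIST1H2BB: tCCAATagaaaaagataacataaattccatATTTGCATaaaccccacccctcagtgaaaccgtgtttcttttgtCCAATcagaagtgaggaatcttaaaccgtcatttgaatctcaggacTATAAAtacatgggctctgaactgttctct
HIST1H2BK: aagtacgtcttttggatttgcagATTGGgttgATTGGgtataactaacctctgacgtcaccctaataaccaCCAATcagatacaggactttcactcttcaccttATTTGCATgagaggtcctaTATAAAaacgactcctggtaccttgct
HIST1H1B: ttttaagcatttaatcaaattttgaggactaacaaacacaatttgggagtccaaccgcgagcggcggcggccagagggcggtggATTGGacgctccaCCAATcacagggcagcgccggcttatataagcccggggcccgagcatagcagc
HIST1H4E: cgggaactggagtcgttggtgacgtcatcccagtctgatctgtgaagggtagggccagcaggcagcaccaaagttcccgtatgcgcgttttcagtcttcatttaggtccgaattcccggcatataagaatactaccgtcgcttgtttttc

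Values below are background-subtracted median signals, and ratios are log2 of Cy5 over Cy3 with the median of each array set to 0. Each array held 43376 non-control spots, of which 58.2 to 59.2% were well above background in Cy3. Between replicate spots of a probe the SD of the log2 ratio was 0.0523 to 0.0591, which is spotting error on 1 array and no measure of the spread between cultures. Of the 65 members, 56 had Cy3 well above background on all 4 arrays and 5 on none: HIST1H1T, HIST1H2AA, HIST1H2BA, HIST1H4G and HIST4H4, of which HIST1H1T, HIST1H2AA and HIST1H2BA are known from testis. HIST1H2AC and HIST1H4A were above it on 3 arrays. The single spots of HIST1H2AH and HIST1H2BF were marked as outliers on the FaDu miR-489 array and were left out there, so neither gene entered the limma fit. For a gene with several probes the brightest was used.

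Taken as a whole, the clustered histone genes stayed close to the median gene. Their median log2 ratio was 0.10 on the FaDu miR-489 array, -0.12 on the FaDu miR-504 array, 0.05 on the HSC3 miR-489 array and -0.10 on the HSC3 miR-504 array, over 57 to 60 measured members, against -0.02 to -0.01 over all genes. On the FaDu miR-489 array 1 of 57 members was at least 2-fold lower (8.78% of all genes) and 1 of 58 at least 2-fold higher (2.89% of all genes). On the FaDu miR-504 array 5 of 60 were lower (5.97% of all genes) and 1 of 59 higher (2.36%). On the HSC3 miR-489 array 3 of 60 were lower (8.15%) and 0 of 61 higher (2.71%), and on the HSC3 miR-504 array 3 of 59 were lower (5.11%) and 0 of 60 higher (1.99%). These shares lie below the background in 7 of the 8 counts. The exception, 8.33% lower with miR-504 in FaDu, consists of 3 H3 genes, HIST1H1B and HIST1H2AC. With 1 array per condition these counts have no replicate check.

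**Figure D1:**
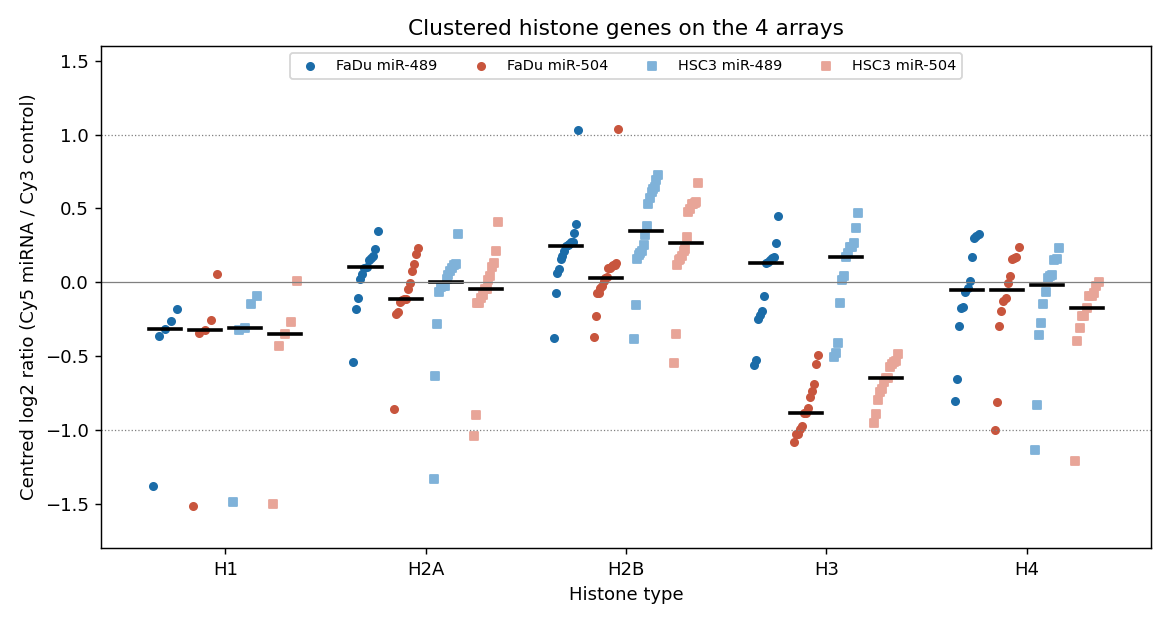
Centred log2 ratio (vertical axis) of each clustered histone gene with both channels well above background, by histone type (horizontal axis) on the 4 arrays; black bars are medians and dotted lines mark 2-fold. On the 2 miR-504 arrays the H3 medians are -0.88 and -0.65, and on the 2 miR-489 arrays they are 0.13 and 0.17.

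The type that departed from the rest was H3, the core histone whose tail carries many regulatory marks. All 13 H3 genes were below the array median on both miR-504 arrays, with medians of -0.88 in FaDu and -0.65 in HSC3, whereas 6 and 4 of the 13 were below it on the miR-489 arrays, with medians of 0.13 and 0.17. These miR-489 medians turned sign with loess (-0.13 and -0.01) and with the scanner software's ratio (-0.20 and -0.07), and the FaDu median also with the mean of all probes of a gene (-0.16). The difference between the miRNAs within a line, miR-489 minus miR-504, had a median of 1.02 in FaDu and 0.82 in HSC3 over the 13 genes, and of 0.44 and 0.48 with the mean of all probes of a gene in place of the brightest. The same difference was 0.03 and 0.02 for H1, 0.13 and 0.01 for H2A, 0.16 and 0.08 for H2B and 0.04 and 0.16 for H4, and 0.01 and 0.02 over all genes.

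HIST1H3C shows the pattern in the signals. Its Cy3 signal in control cells was 11416 and 11742 on the FaDu arrays and 11574 and 13044 on the HSC3 arrays. Its Cy5 signal was 19142 with miR-489 and 8708 with miR-504 in FaDu, and 19893 and 9600 in HSC3. Cy3 was thus nearly level across the 4 arrays, and Cy5 was high on both miR-489 arrays and low on both miR-504 arrays. The log2 ratios were 0.16, -1.08, 0.20 and -0.89 in FaDu with miR-489, FaDu with miR-504, HSC3 with miR-489 and HSC3 with miR-504, the order kept for every set of 4 values below. HIST1H3G gave 0.13, -1.03, 0.24 and -0.80. HIST2H3PS2, named for the second cluster, gave 0.27, -0.88, 0.37 and -0.65. This name was matched to a current gene by synonym only, and its probe lists transcripts of 0 current RefSeq genes. HIST3H3, of the third cluster, gave 0.14, -0.89, 0.17 and -0.65. It was the brightest clustered H3 gene, with Cy3 signals of 23758 to 31418, and whether its probe reads other H3 transcripts was not tested. In all 4 genes both miR-489 arrays lay above both miR-504 arrays (28.5% of all probes). They were named for their brightness or for a call between the miRNAs on these same arrays, so the order is no separate check.

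HIST1H3I, with 0.15, -1.02, 0.27 and -0.95, differed from them in its signals. Its Cy3 signal was 428 on the FaDu miR-489 array and 907 on the FaDu miR-504 array, while its Cy5 signal was 709 and 700 there. In FaDu the 2 ratios therefore differed through Cy3, the control channel. In HSC3 its Cy3 signals were 874 and 914 and its Cy5 signals 1580 and 642.

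In limma, with the 2 lines as replicates of each miRNA and p-values adjusted over 20912 probes by Benjamini-Hochberg, 7 of 67 histone probes were higher with miR-489 than with miR-504 (0.306% of all probes) and 0 of 67 were lower (0.76% of all probes). All 7 were among the 16 tested H3 probes. Across 6 genes they were HIST1H3I (1.20 ± 0.11 SE, adjusted p = 0.0345), HIST1H3C (1.17 ± 0.12, adjusted p = 0.0371), HIST1H3G (1.10 ± 0.13, adjusted p = 0.0423), HIST2H3PS2 (1.09 ± 0.13, adjusted p = 0.0426), HIST1H3B (0.99 ± 0.12, adjusted p = 0.0399) and both probes of HIST2H3A (1.10 ± 0.12, adjusted p = 0.038, and 1.16 ± 0.13, adjusted p = 0.0399). HIST3H3 missed the threshold in limma (0.92 ± 0.13, adjusted p = 0.0561), and passed it with the cell line as a block, which left 8 probes. At an unadjusted p under 0.05 the full fit had 12 of 67 histone probes (18.5% of all probes), so the histone share of 17.9% was near the background, and all 12 were among the 16 for H3. With any 1 of the 4 arrays left out, 0 histone probes and 0 of all 20912 passed, and 14.9 to 17.9% of histone probes had an unadjusted p under 0.05 against 9.87 to 17.7% of all probes.

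Probes of the same H3 gene did not always give the same value. The brighter HIST1H3B probe read 0.17, -0.85, 0.24 and -0.72, while the dimmer one read -0.21, -0.23, -0.12 and -0.14. HIST1H3D likewise read -0.09, -0.77, 0.04 and -0.56 on one probe and -0.23, -0.32, 0.02 and -0.06 on the other. Both HIST2H3A probes showed the difference between the miRNAs, with 0.45, -0.73, 0.47 and -0.54 on one and 0.11, -1.10, 0.24 and -0.86 on the other. A second HIST1H3G probe was near background on the 4 arrays, with Cy3 signals of 33 to 46. Across the 16 measured H3 probes, both miR-489 arrays lay above both miR-504 arrays for 14 (28.5% of all probes), and across the 51 tested probes of the other types they did for 18. The exceptions among H3 probes were a HIST1H3B probe and a HIST1H3D probe. HIST1H3A (-0.56, -0.99, -0.48 and -0.74) and HIST1H3E (-0.53, -0.97, -0.51 and -0.68) were below the array median with either miRNA.

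H3 genes outside the clusters gave similar values. H3F3B, which encodes the replacement histone H3.3 and is expressed throughout the cell cycle with a polyadenylated mRNA, passed the same contrast on 3 of 3 probes (1.29 ± 0.13, adjusted p = 0.0345; 1.20 ± 0.14, adjusted p = 0.0399; 1.11 ± 0.12, adjusted p = 0.0371). Its 2 brightest probes had Cy3 signals between 27889 and 40945, and the 3 probes gave ratios of 0.31 to 0.67 on the miR-489 arrays and -1.01 to -0.48 on the miR-504 arrays. H3F3A, a second gene for H3.3, gave -0.41 to 0.10 with miR-489 and -0.91 to -0.32 with miR-504 on 5 probes, none of which passed. Binding of H3F3B transcripts to the clustered H3 probes was not tested. The 7 called H3 probes also had nearly equal Cy3 in FaDu and HSC3 (FaDu minus HSC3 -0.32 to 0.21 on the log2 scale), as the 3 H3F3B probes did (0.09 to 0.24), and as the H3F3A probes did (-0.29 to -0.08), while the other 9 H3 probes ranged from -0.19 to 1.0 and included HIST3H3 (0.08), HIST1H3A (-0.06) and HIST1H3E (-0.19). Whether the clustered H3 probes measure separate transcripts was not tested.

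**Figure D2:**
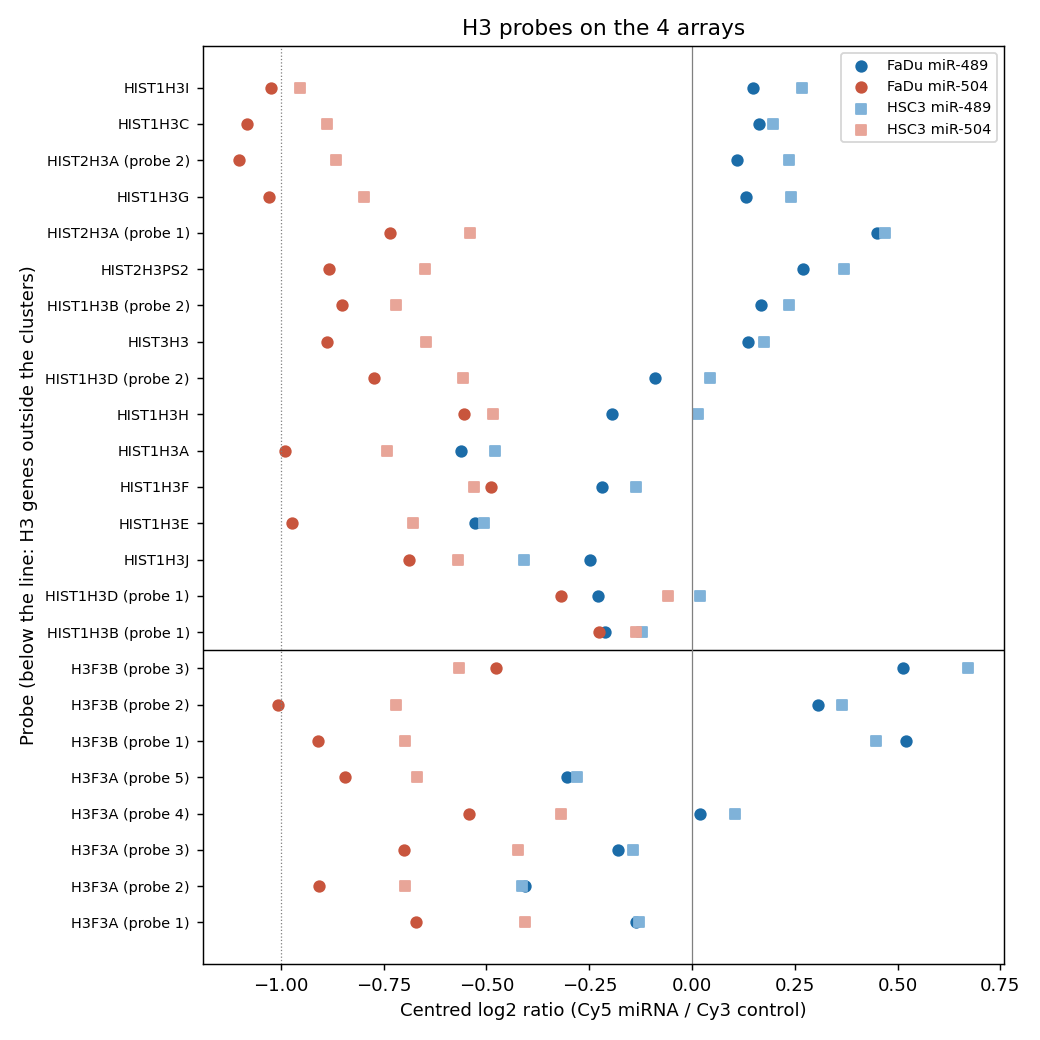
Centred log2 ratio (horizontal axis) of each H3 probe above background on all 4 arrays (rows), with the H3.3 genes H3F3A and H3F3B below the line; circles are FaDu, squares HSC3, blue miR-489 and red miR-504. Blue points lie to the right of red points for 14 of the 16 clustered H3 probes (28.5% of all probes), and the dimmer HIST1H3B and HIST1H3D probes show little separation.

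Against the control transfectants, 14 of 16 H3 probes were lower with miR-504 and 0 higher, and 3 were lower and 2 higher with miR-489. Across all types, 25 of 67 histone probes were lower with miR-504 (23.4% of all probes) and 2 higher (26.2%), and 13 were lower with miR-489 (26.5%) and 9 higher (30.5%). The share called lower is thus above the background with miR-504 and below it with miR-489, and the share called higher is below it with both. This split depended on the scaling: with loess it was 31 lower and 1 higher for miR-504 and 21 and 2 for miR-489, and without background subtraction 24 and 10, and 10 and 28. Against all probes under the same setting the comparison turned for miR-489: with loess 31.3% of histone probes were lower (26.6% of all), and without background subtraction 41.8% were higher (35.1% of all). For miR-504 the share called lower stayed above all probes, at 46.3% (24.1%) with loess and 35.8% (26.5%) without subtraction. The HIST1H3C value with miR-489 changed sign with loess, to -0.06 in FaDu and -0.01 in HSC3, while with miR-504 it stayed at -1.22 and -1.06. Dye and treatment point the same way on every array, so these contrasts with control include any dye effect of a probe, and a dye effect that is the same on all 4 arrays cancels between the miRNAs.

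Linker histone genes were mostly below the array median, and HIST1H1B was the member with the lowest ratios. Its Cy3 signal was 200 and 174 in FaDu and 125 and 108 in HSC3, and its Cy5 signal 115, 95.5, 67 and 52. The log2 ratios were -1.38, -1.51, -1.48 and -1.5, all past 2-fold lower, and HIST1H1B was the 1 member past 2-fold in the same direction on all 4 arrays. On single arrays 5.11 to 8.78% of all genes were at least 2-fold lower, and the share lower on all 4 was not computed. In limma HIST1H1B was lower with miR-489 (-1.43 ± 0.08, adjusted p = 0.000883) and with miR-504 (-1.51 ± 0.08, adjusted p = 0.00134). With normexp and loess the 4 values were -0.98, -1.02, -0.82 and -0.73. HIST1H1C (-0.37, -0.25, -0.32 and -0.27) and HIST1H1E (-0.31, -0.34, -0.31 and -0.43) were also lower in both limma contrasts, with adjusted p from 0.0122 to 0.0377. HIST1H1A and HIST1H1D ranged from -0.35 to 0.06 and did not pass. Between the miRNAs 0 of 5 H1 probes passed in limma (0.76% of all probes lower and 0.306% higher), with 0 at an unadjusted p under 0.05 (18.5% of all).

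H2A genes, whose protein pairs with H2B, lay near the array median. Their medians were 0.10, -0.11, -0.001 and -0.05 on the 4 arrays. In limma 3 of 17 probes were lower with miR-489 (17.6% against 26.5% of all probes) and 1 higher (5.88% against 30.5%). With miR-504, 4 were lower (23.5% against 23.4%) and 1 higher (5.88% against 26.2%). Between the miRNAs 0 passed (0.76% of all probes lower and 0.306% higher), with 0 at an unadjusted p under 0.05 (18.5% of all). The leading H2A probes gave small values: HIST1H2AG read 0.10, -0.12, -0.03 and -0.10, HIST1H2AK 0.15, -0.01, 0.11 and 0.04, and HIST2H2AA3 -0.18, -0.20, -0.28 and -0.14. HIST1H2AD was the highest H2A gene, at 0.34, 0.23, 0.33 and 0.41. By the mean over the arrays HIST1H2AL was the lowest of those above background on all 4, at -0.54, -0.86, -1.33 and -0.90, with Cy3 signals of 77 and 57.5 in HSC3. HIST1H2AC was lower than it on the miR-504 arrays, at -1.05 and -1.04, on Cy3 signals of 33 and 38.5, close to background.

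H2B was the type with the highest medians, at 0.25, 0.03, 0.35 and 0.26. In limma 5 of 18 probes were higher with miR-489 (27.8% against 30.5% of all probes) and 2 lower (11.1% against 26.5%). With miR-504, 1 was higher (5.56% against 26.2%) and 2 lower (11.1% against 23.4%). Between the miRNAs 0 passed (0.76% of all probes lower and 0.306% higher), with 0 at an unadjusted p under 0.05 (18.5% of all). The highest H2B gene was HIST1H2BK. Its Cy3 signal was 579 and 486 in FaDu and 4188 and 4619 in HSC3, and its Cy5 signal 1769 and 1570 in FaDu and 10156 and 9080 in HSC3. The ratios were 1.03, 1.04, 0.69 and 0.53, highest in the line where its control signal was lowest. It was higher with miR-489 (0.86 ± 0.15, adjusted p = 0.00724) and with miR-504 (0.78 ± 0.15, adjusted p = 0.0117).

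Another set of 6 H2B genes gave higher ratios in HSC3 than in FaDu with either miRNA. HIST1H2BB read 0.06 and -0.07 in FaDu and 0.73 and 0.67 in HSC3. HIST1H2BL read 0.18 and -0.04, then 0.63 and 0.55, and HIST1H2BE 0.21 and 0.03, then 0.61 and 0.54. HIST1H2BH read -0.07 and -0.23, then 0.53 and 0.47, HIST1H2BO 0.09 and -0.07, then 0.57 and 0.50, and HIST1H2BF 0.01 on the FaDu miR-504 array, then 0.65 and 0.53. Both HSC3 values of each gene were above its FaDu values, of which HIST1H2BF has only the one with miR-504. Over the 6 genes HSC3 ranged from 0.47 to 0.73 and FaDu from -0.23 to 0.21, and the other 10 H2B genes above background had medians of 0.20 and 0.17 in HSC3 and 0.26 and 0.11 in FaDu. The 6 were grouped after their values were seen, and since the arrays of a line may share 1 control RNA no test of the line difference was made. The control signal moved with this grouping: Cy3, FaDu minus HSC3 on the log2 scale, was 0.78 to 1.71 for the 6 and -2.85 to 0.41 for the other 10, and its part in the result was not tested. Only the HIST1H2BE probe among the 6 lists other genes, including HIST1H2BL (now H2BC13) and HIST1H2BC (now H2BC4), whose own probe read 0.25, 0.12, 0.16 and 0.18. In limma, which takes the lines as replicates, HIST1H2BB (0.40 ± 0.23, adjusted p = 0.197) and HIST1H2BL (0.41 ± 0.18, adjusted p = 0.105) did not pass for miR-489. HIST1H2BD had 2 probes that disagreed in sign with miR-489, 0.27 and 0.12 on one and -0.38 and -0.39 on the other.

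**Figure D3:**
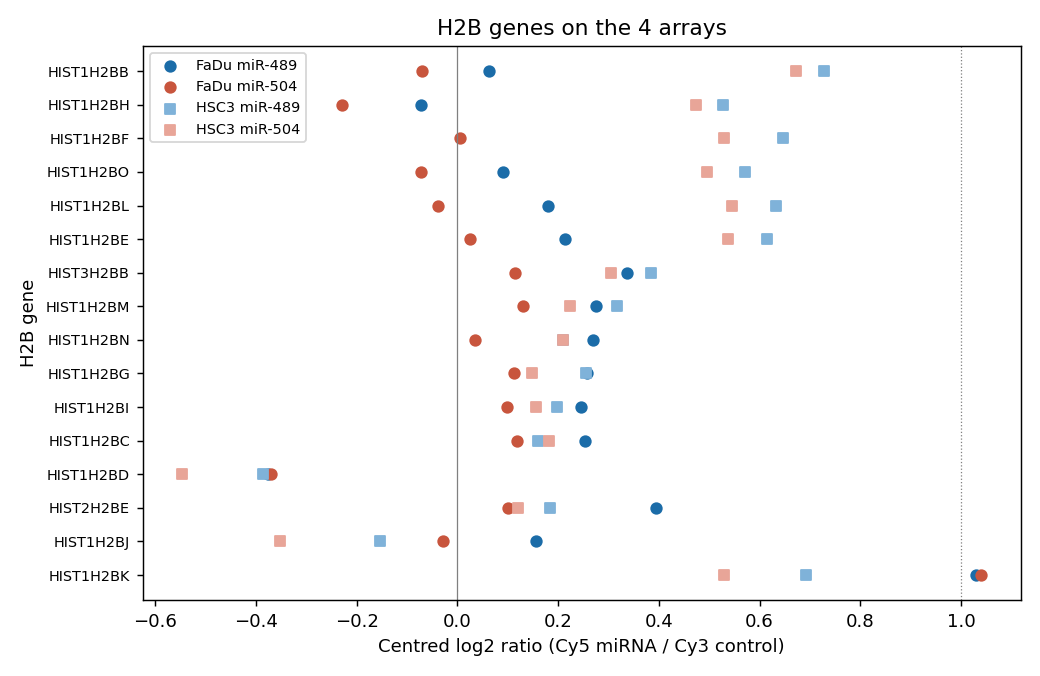
Centred log2 ratio (horizontal axis) of the 16 H2B genes above background on at least the FaDu miR-504 and both HSC3 arrays (rows), ordered by HSC3 minus FaDu; circles are FaDu, squares HSC3, blue miR-489 and red miR-504. In the upper 6 rows both HSC3 points lie at 0.47 to 0.73 and FaDu points at -0.23 to 0.21; HIST1H2BK, at the foot, has the reverse order.

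H4 genes were near the array median, with medians of -0.05, -0.05, -0.02 and -0.17, and with loess below it, at -0.29, -0.20, -0.22 and -0.32. HIST1H4C read 0.01, 0.05, -0.07 and -0.23, HIST1H4L -0.04, -0.002, -0.14 and -0.17, and HIST1H4B -0.17, -0.19, -0.27 and -0.31. HIST1H4E was lower throughout, at -0.80, -1.0, -0.83 and -1.21, on Cy3 signals of 276 to 336. It was lower in limma with miR-489 (-0.82 ± 0.09, adjusted p = 0.00188) and miR-504 (-1.10 ± 0.09, adjusted p = 0.00155). Of 11 H4 probes 0 passed between the miRNAs (0.76% of all probes lower and 0.306% higher), with 0 at an unadjusted p under 0.05 (18.5% of all).

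Control transfectants of the lines differed in their histone signal by type. The Cy3 level of an array was scaled to its own median, and 20 of 60 members were at least 2-fold higher in FaDu (13.4% of all genes) and 2 of 60 at least 2-fold higher in HSC3 (12.9% of all genes). The median FaDu minus HSC3 difference was 0.66 on the log2 scale over the 60 members, against 0.06 over 18020 genes. By type it was 0.88 for H1, 1.25 for H2A, 0.18 for H2B, 0.12 for H3 and 1.11 for H4. FaDu was at least 2-fold higher for 2 of 5 H1, 7 of 14 H2A, 3 of 16 H2B, 1 of 13 H3 and 7 of 12 H4 genes. The median difference was also 0.47 over 20 S-phase genes, 0.43 over 14 histone chaperone genes and 0.38 over 11 histone genes outside the clusters. Over 19 genes for histone mRNA synthesis and 3' processing it was 0.065. The 2 arrays of a line may share 1 control RNA, so no test was made.

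HSC3 controls themselves were not alike on their 2 arrays. The centred Cy3 was higher on the HSC3 miR-489 array than on the HSC3 miR-504 array by a median of 0.43 over 70 histone probes, 0.79 for H2A and 0.71 for H4, where the FaDu arrays differed by 0.02, -0.06 and 0.02. HIST1H4K, for example, had a Cy3 signal of 657 and 342 in HSC3 and 2218 and 2470 in FaDu, and its ratios were -0.07, -0.13, 0.03 and -0.10. Without the HSC3 miR-504 array 13 rather than 20 members were at least 2-fold higher in FaDu.

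The largest differences were in H1. HIST1H1A had Cy3 signals of 1534 and 1257 in FaDu and 244 and 140 in HSC3, a difference of 3.11 on the log2 scale. HIST1H1D had 1700 and 1616 against 238 and 229, a difference of 3.03. HIST1H4K (2.51), HIST1H2AL (2.42) and HIST1H4J (2.42) followed. In all 5 genes both FaDu signals were above both HSC3 signals, but the genes were picked for the size of this difference, so the order is no separate check. HIST1H2BK was the largest in the other direction, at -2.85 (579 and 486 in FaDu, 4188 and 4619 in HSC3), followed by HIST1H2BM at -1.21. HIST1H2BI (-0.84), HIST2H2AA3 (-0.80) and HIST1H2BC (-0.73) were higher in HSC3 by less than 2-fold.

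**Figure D4:**
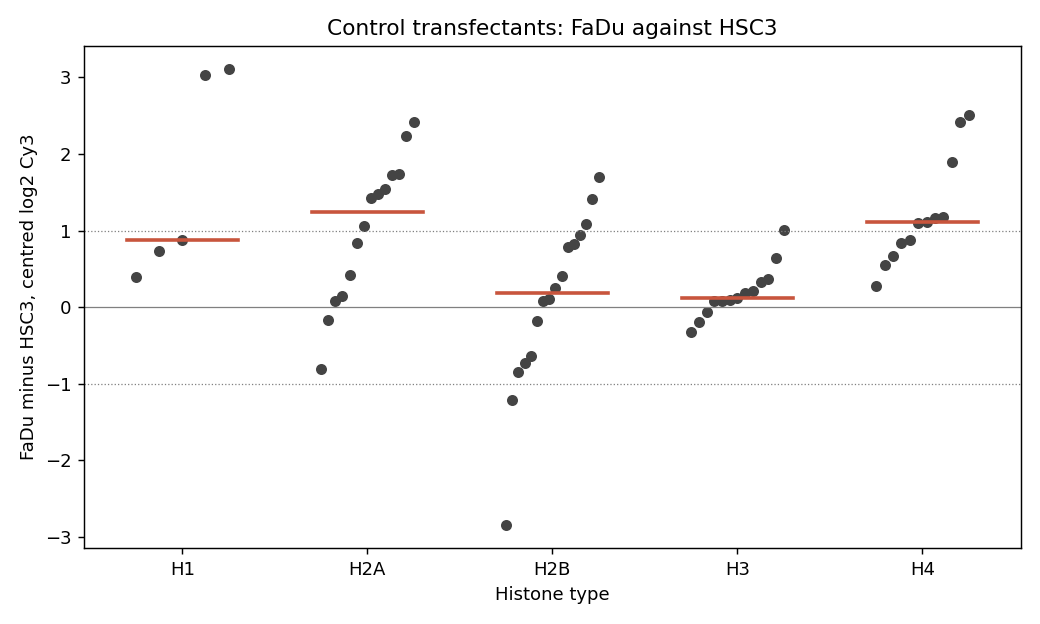
FaDu minus HSC3 difference of the centred log2 Cy3 level (vertical axis) of each clustered histone gene above background on both arrays of at least 1 line, by histone type (horizontal axis); red bars are medians and dotted lines mark 2-fold. H2A and H4 medians are 1.25 and 1.11, H3 and H2B medians 0.12 and 0.18, and the lowest point is HIST1H2BK at -2.85.

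H2A and H2B genes often lie side by side, and 11 pairs of members were within 500 bases of each other in RefSeq. Several such neighbours stood on opposite sides of, or far apart on, the comparison of the lines. HIST1H2AH was 1.73 higher in FaDu (1 FaDu array) while its neighbour HIST1H2BK was at -2.85. HIST1H2AJ was at 1.48 and HIST1H2BM at -1.21, and HIST1H2AG was at 1.74 and HIST1H2BJ at 0.11. HIST1H2AM and HIST1H2BO were both higher in FaDu, at 1.42 and 1.08. The HIST1H2AJ probes list transcripts of 2 genes. H2AFJ, an H2A gene outside the clusters, had differences of 1.70 and 1.79 on its 2 bright probes, close to those of HIST1H2AG, HIST1H2AH and HIST1H2AK (1.54), and binding of its transcripts to these probes was not tested.

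Genes that make and process histone mRNA and genes of S phase were read on the same arrays. In limma 0.306% and 0.76% of all probes were called higher and lower between the miRNAs, so a count of 0 in lists of this size is near the background. Of 22 probes for histone mRNA synthesis and 3' processing, 0 passed in limma between the miRNAs (2 at an unadjusted p under 0.05, 9.09% against 18.5% of all). With miR-489, 11 were higher (50% against 30.5% of all) and 5 lower (22.7% against 26.5%), and with miR-504, 8 were higher (36.4% against 26.2%) and 6 lower (27.3% against 23.4%). SLBP, which binds the stem-loop at the end of histone mRNAs, read 0.69, 0.82, 0.89 and 0.81. CPSF3, the nuclease that cuts histone pre-mRNA, read 1.35, 1.09, 1.28 and 1.05, and SNRPB, a core protein of spliceosomal snRNPs, 1.57, 1.27, 1.77 and 1.35, both past 2-fold on all 4 arrays. On single arrays 1.99 to 2.89% of all genes were at least 2-fold higher, and the share higher on all 4 was not computed. Other members of the list went the other way: CCNE1 read -1.06, -1.04, -1.33 and -0.985, and UPF1 -0.62, -0.61, -0.88 and -0.72. NPAT, the coactivator of histone transcription, read -0.14, 0.10, -0.11 and -0.25 on its brightest probe, with Cy3 signals of 90 to 128, and its 2 probes did not give the same value in limma (-0.12 and 0.74 with miR-489). For the 28 probes of S-phase genes 0 passed between the miRNAs in limma (7 at an unadjusted p under 0.05, 25% against 18.5% of all). With miR-489, 13 were higher (46.4% against 30.5% of all) and 5 lower (17.9% against 26.5%), and with miR-504, 12 were higher (42.9% against 26.2%) and 8 lower (28.6% against 23.4%). Of 19 probes for histone chaperones 1 passed, a probe of RBBP4, a subunit of the CAF-1 chaperone (-1.46 ± 0.12, adjusted p = 0.0316). A second RBBP4 probe did not pass in limma (-0.37 ± 0.46, adjusted p = 0.735). Among 20 probes of histone genes outside the clusters the 3 H3F3B probes passed and the other 17 did not.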

How the data were processed

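Expression was measured on 4 two-colour 44K arrays of the same slide, scanned together. The deposited scanner files give spot intensity and the software's log10 ratio of Cy5 over Cy3, and the deposited value table equals that ratio. Following the authors' methods, ratios were log2 of background-subtracted median intensity (floor 1), centred on the median of probes well above background in both channels (0.45 to 0.65 removed). From 118 to 137 outlier spots per array were left out, and 0 were saturated. A gene was counted as 2-fold lower only with Cy3, and higher only with Cy5, well above background. limma 3.58.1 (R 4.3.3) was fitted to probes with Cy3 well above background on all 4 arrays, with the 2 lines as replicates of a miRNA. Adjusted p-values (Benjamini-Hochberg, 0.05) rest on a probe's spread between lines (2 degrees of freedom) and on a prior shared by all probes (3.2 degrees of freedom, SD 0.135). In the contrasts with control, the spread of the control itself is not in the test. The fit was tested on simulated data. Members and gene lists were chosen with earlier results of these data known. Named genes were, per type, the 3 brightest, then the 5 lowest and 5 highest ratios, calls between the miRNAs, the 5 largest line differences each way, SLBP, NPAT and listed genes past 2-fold on all 4 arrays, and others were named after their values were seen. The number of arrays limits the precision. The build of the array's own coordinates is not given in the sources used here.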

Additional observations from a re-analysis of the deposited data

How the results depend on the processing

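Of 146 recomputed counts, 100 stayed within 1.5 times the main count. The H3 difference between the miRNAs kept its direction throughout, with a median of 0.44 to 1.05 in FaDu and 0.48 to 0.85 in HSC3, the lowest with the mean of all probes of a gene. The H3 medians with miR-489 turned sign with loess (-0.13 and -0.01) and with the scanner software's ratio (-0.20 and -0.07). With the cell line as a replicate block 8 rather than 7 histone probes passed between the miRNAs, a change of call for HIST3H3. The cause of the following changes was not tested.

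Genes at least 2-fold lower on the FaDu miR-489 array (1) became 0 with normexp and loess, 5 without a filter on dim probes, 3 with the mean of all probes and 3 at 1.5-fold, and genes higher (1) became 0 with loess, normexp and loess, the scanner software's ratio and the deposited table. On the FaDu miR-504 array, genes lower (5) became 2 with normexp, 1 without background subtraction, 9 with loess, 8 with normexp and loess, 10 with the software's ratio, 10 in the deposited table, 10 without a filter and 16 at 1.5-fold, and genes higher (1) became 0 with loess, normexp and loess, the software's ratio and the deposited table. On the HSC3 miR-489 array, genes lower (3) became 0 with normexp, 1 without background subtraction, 1 with loess, 0 with normexp and loess, 6 without a filter, 5 with the mean of all probes and 5 at 1.5-fold, and genes higher (0) became 5 at 1.5-fold. On the HSC3 miR-504 array, genes lower (3) became 0 with normexp, 1 without background subtraction, 1 with normexp and loess, 8 without a filter, 5 with the mean of all probes and 12 at 1.5-fold, and genes higher (0) became 1 at 1.5-fold.

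Histone probes called in limma for miR-489 against control (22) became 34 with normexp and 38 without background subtraction, and 5 to 16 with 1 array left out. For miR-504 against control (27) they were 13 to 26 with 1 array left out, and between the miRNAs (7) they were 0 whichever array was left out. Genes at least 2-fold higher in FaDu (20) were 13 to 26 with 1 array left out. A fit without 1 array rests on 1 sample for that miRNA, assumed to vary like the others. Dim probes limit the counts: the median ratio was -0.41 to -0.28 in the dimmest quartile of measured probes and 0.11 to 0.18 in the brightest.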
